A study of Rattus norvegicus with 4 samples.

Results

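Metallothioneins and the genes that move zinc across membranes were followed here through 4 libraries of rat mesenchymal stem cells: Mt1 and Mt2A, their transcriptional activator Mtf1, the zinc exporter Slc30a1 and the zinc importer Slc39a14. These 5 genes are named rows among 34034 in the table of counts, and all 5 had at least 40 counts over the 4 libraries, as did 12228 genes in all. They were chosen by measured values of this table: Mt1 and Mt2A stood out in senescent cells with trichostatin A (TSA) over senescent cells without it, so values of that pair describe the choice and support nothing further. The cells came from femurs of Rattus norvegicus, all held in osteogenic induction medium and labelled as day 1 and as a single batch. The groups were senescent cells with TSA and phenamil (TSA + phenamil), senescent cells with TSA (TSA), senescent cells with vehicle (senescent control) and young cells with vehicle (young control), each treated for 24 h and each held by 1 library. TSA inhibits histone deacetylases, and phenamil is a derivative of amiloride, a blocker of sodium channels. The design text of the series names benzyl ether where the sample labels name phenamil; the labels were followed. Which animals were used, at what age, the doses and the route to senescence were not stated in the labels, and no library held phenamil alone.

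Metallothioneins are small cysteine-rich proteins that bind zinc and copper in the cytosol and also take up cadmium. When free zinc rises, MTF1, a zinc-finger factor that senses the metal, binds metal response elements before metallothionein genes and before Slc30a1, the plasma membrane exporter that lowers cytosolic zinc. Members of the SLC39 family bring zinc into the cytosol, and Slc39a14, which also carries iron and manganese, is known in liver as a target of interleukin-6. Glucocorticoids and oxidative stress can raise metallothionein transcripts as well.

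Total counts ran from 9873894 to 11024227 per library, and a count of 0 allows up to 3 counts, or 0.270 to 0.302 CPM (the count relative to library size), as a 1-sided limit. Levels below are CPM after scaling by the trimmed mean of M-values, with 2-sided 95% Poisson intervals in parentheses, and ratios carry 95% exact counting intervals. Both cover counting error only, since reads were not tied to single molecules. With 1 library a group there was no replicate spread and no test: every comparison is between libraries, not conditions. A gene was called higher or lower when the whole interval of its ratio lay on 1 side of no change. All 7 stromal markers were detected in every library: Thy1, Cd44, Pdgfrb, Nt5e and Col1a1 with 112 or more counts, and Eng and Lepr with 10 to 44. Their levels differed between libraries: with TSA over the senescent control Nt5e was at 1.52 (1.19 to 1.94) and Thy1 at 1.04, both called higher, while Pdgfrb was lower at 0.663 (0.566 to 0.776) and Col1a1 at 0.893. Pdgfrb stood at 47.0 CPM with TSA + phenamil, 25.7 CPM with TSA, 38.8 CPM in the senescent control and 46.5 CPM in the young control, so it was lowest in the TSA library, where the metallothioneins were highest. Col1a1 and Lepr were also lowest there. Nt5e was highest there, at 16.4 CPM against 10.1 to 12.0 CPM in the others, and Thy1, Eng and Cd44 were neither highest nor lowest. Of the haematopoietic markers, Itgam and Lyz2 had 0 counts in all libraries, and summed levels of that list were 9.05 and 9.17 CPM with TSA + phenamil and TSA, against 5.81 CPM in the senescent control and 5.14 CPM in the young control, nearly all from Cd14. Summed endothelial markers were at most 0.403 CPM and summed erythroid markers at most 1.41 CPM, both in the TSA library, with Pecam1 and Hbb at 0 throughout. Summed adipocyte markers were 3.63 to 5.32 CPM, nearly all from Lpl. The part of these markers and of such cells in the results below was not tested, and in bulk RNA fewer cells of a type and less RNA per cell cannot be told apart.

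Mt1 and Mt2A lie next to each other on chromosome 19, and the 250 bases before each start are shown because they carry the element through which zinc acts on these genes. Sequences are from RefSeq on GRCr8, read 5′ to 3′ on the strand of the gene, and capitals mark the core of the metal response element, TGCACNC or TGCGCNC on either strand. That before Slc30a1, the exporter known to share this control, is shown for comparison. The windows are chr19:10832976-10833225 (minus strand), chr19:10838709-10838958 (minus strand) and chr13:106021769-106022018 (plus strand).
Mt1: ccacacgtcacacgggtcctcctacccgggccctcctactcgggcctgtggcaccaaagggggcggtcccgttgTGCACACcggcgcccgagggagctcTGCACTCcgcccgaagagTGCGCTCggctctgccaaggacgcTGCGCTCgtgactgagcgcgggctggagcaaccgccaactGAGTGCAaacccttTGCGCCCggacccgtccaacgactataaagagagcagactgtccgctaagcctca
Mt2A: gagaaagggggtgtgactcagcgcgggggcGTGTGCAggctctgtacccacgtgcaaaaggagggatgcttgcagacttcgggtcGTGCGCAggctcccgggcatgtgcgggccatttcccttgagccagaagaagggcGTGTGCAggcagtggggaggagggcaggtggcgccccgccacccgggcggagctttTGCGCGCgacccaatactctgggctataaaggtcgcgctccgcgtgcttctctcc
Slc30a1: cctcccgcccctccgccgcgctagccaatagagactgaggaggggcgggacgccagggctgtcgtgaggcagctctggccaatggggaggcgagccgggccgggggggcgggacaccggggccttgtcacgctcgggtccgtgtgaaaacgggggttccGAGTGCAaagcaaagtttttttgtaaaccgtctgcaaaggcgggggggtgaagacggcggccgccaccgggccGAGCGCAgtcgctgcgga
The window before Mt1 held 6 matches, 5 of them on the strand of the gene, and that before Mt2A held 4, of which 3 were on the opposite strand. In both genes the match closest to the start spanned the bases 55 to 49 before it, and no matches overlapped. Slc30a1 held 2 matches, at 91 to 85 and at 18 to 12 bases before the start, and Mtf1 also held 2. Of the first listed windows of 27457 genes, 21.2% held at least 1 match, 5.13% at least 2, 0.277% at least 4 and 0.0219% at least 6. For the 9856 of them before genes compared here, the shares were 31.7%, 8.95%, 0.487% and 0.0203% in that order. A match is a string of letters and not a binding site.

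**Figure D1:**
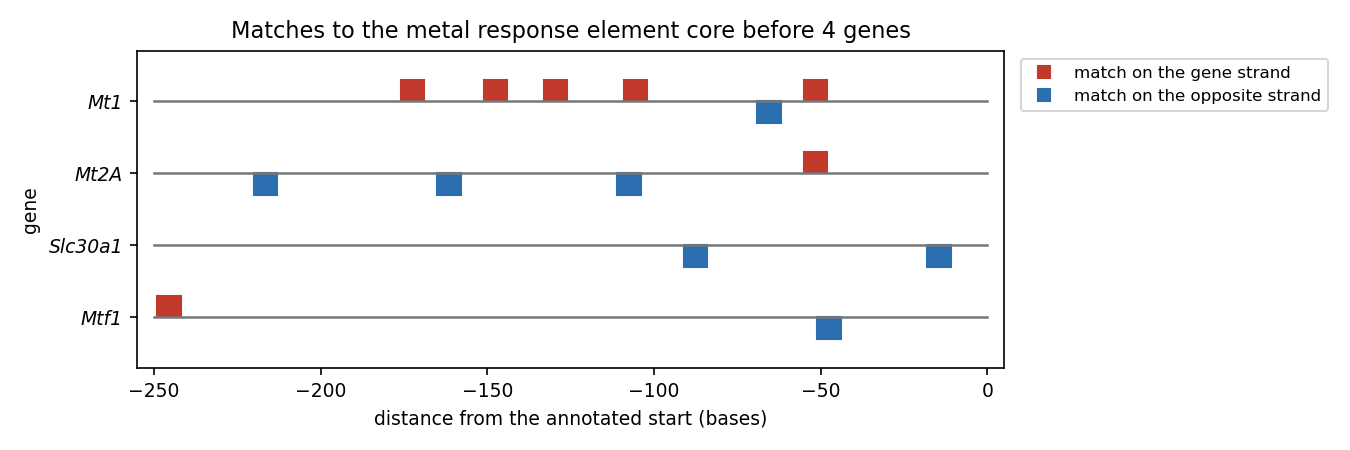
Positions of matches to the metal response element core (boxes) in the 250 bases before the annotated start of 4 genes, by distance in bases; red boxes above the line are on the strand of the gene and blue boxes below it on the other. Mt1 has 6 boxes and Mt2A 4, against 2 each before Slc30a1 and Mtf1.

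Mt1 stood at 22.1 CPM (19.3 to 25.1; 232 counts) with TSA + phenamil, 30.9 CPM (27.6 to 34.6; 307 counts) with TSA, 15.6 CPM (13.4 to 18.1; 172 counts) in the senescent control and 18.6 CPM (16.1 to 21.3; 206 counts) in the young control. Mt2A stood at 22.9 CPM (20.1 to 25.9; 240 counts), 39.9 CPM (36.1 to 44.1; 396 counts), 23.4 CPM (20.7 to 26.5; 258 counts) and 24.3 CPM (21.5 to 27.4; 270 counts) in the same order of libraries. The TSA library was therefore the highest for both genes, with an interval above those of the other 3 libraries, and the untreated libraries overlapped. In the order of Mt1 levels, neither TSA + phenamil over young control, at a ratio of 1.19 (0.982 to 1.44), nor senescent over young control, at 0.841 (0.683 to 1.03), differed beyond counting error. In the order of Mt2A levels, TSA was followed by young control, senescent control and TSA + phenamil. Senescent over young control was at 0.962 (0.808 to 1.15) and TSA + phenamil over senescent control at 0.976 (0.815 to 1.17), so these neighbours did not differ beyond counting error. Higher in the TSA library than in each of the others, by intervals that excluded no change, were 6.24% of all genes compared. The reference lists Mt1-ps1, Mt1-ps3, Mt1-ps4 and Mt1m, which were not analysed here, and how reads shared with near-identical copies were counted is not known, so the level of Mt1 is uncertain.

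**Figure D2:**
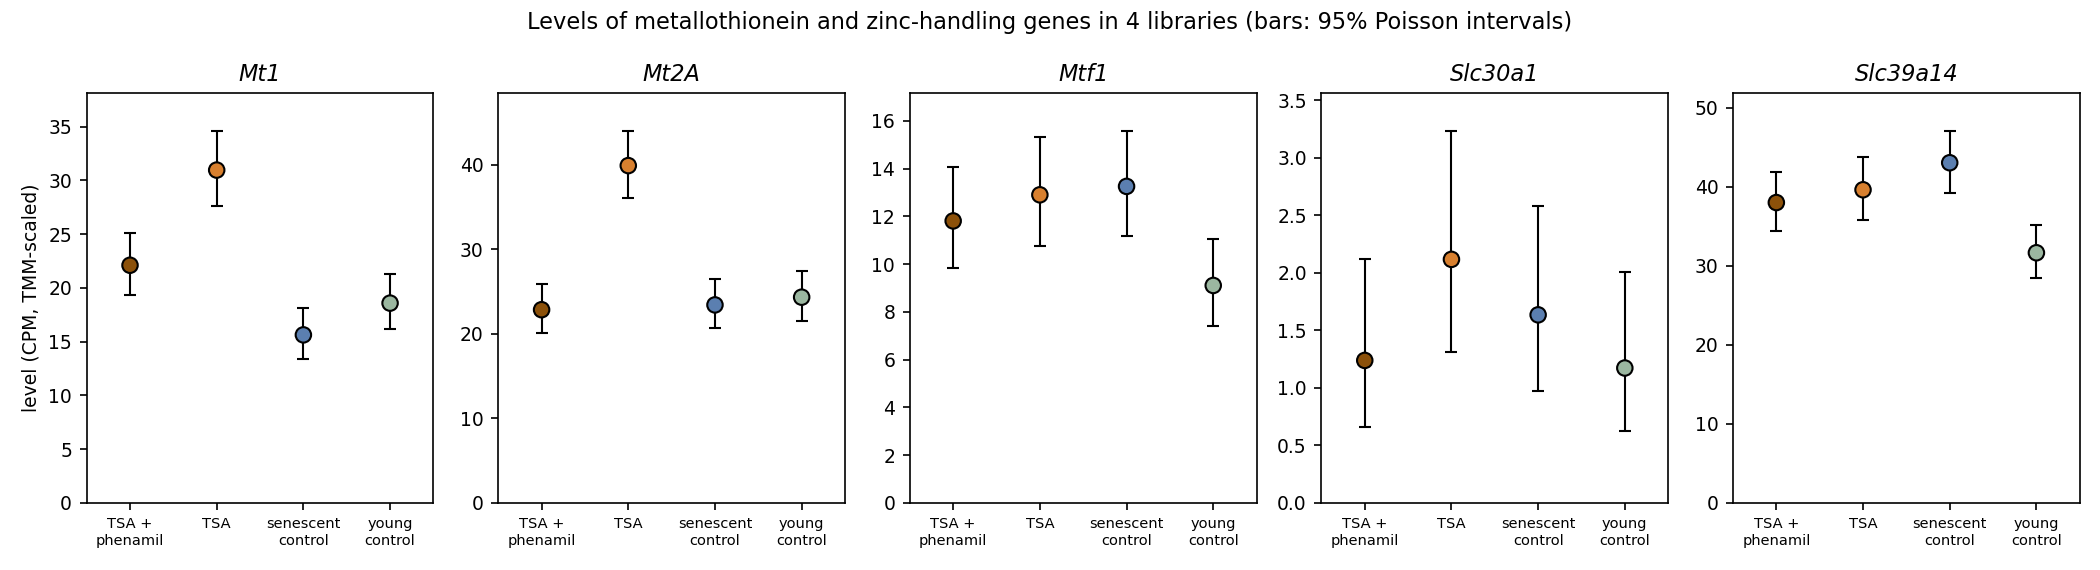
Levels of the 5 genes in CPM (linear axes from 0) in the 4 libraries, with 1 point a library and 95% Poisson intervals as bars. The TSA point is apart from the rest for Mt1 (30.9 CPM) and Mt2A (39.9 CPM), and the young point is the lowest for Mtf1 and Slc39a14.

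With TSA over the senescent control, the pair on which the genes were chosen, the ratio was 1.98 (1.64 to 2.40) for Mt1 and 1.70 (1.45 to 2.001) for Mt2A. Of the 5 genes 2 were higher and 0 lower, where 15.7% of all genes were called higher and 14.8% lower. Among all 12228 genes compared, 254 had a higher ratio than Mt1 and 439 had a higher ratio than Mt2A. Among 7869 genes with a mean of at least 10 CPM, 1 had a higher ratio than Mt1 and 7 had a higher ratio than Mt2A. That cut on the mean was set after values were seen, and high ranks in this pair follow from the choice of the genes. The whole interval lay beyond 1.5-fold for Mt1, as for 0.548% of all genes, and not for Mt2A. Against the young control, a library that played no part in the choice, the TSA library was higher by 1.67 (1.39 to 1.998) for Mt1 and by 1.64 (1.401 to 1.92) for Mt2A. In that pair 4 of the 5 genes were higher and 0 lower, where 20.9% of all genes were called higher and 20.4% lower. There 648 and 688 of the 12228 genes exceeded Mt1 and Mt2A, and 103 and 113 of the 7869 did. The pair still shares the TSA library with the choice.

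With TSA + phenamil the metallothioneins were below the level with TSA alone. The ratio of TSA + phenamil over TSA was 0.714 (0.599 to 0.849) for Mt1 and 0.573 (0.486 to 0.674) for Mt2A, and 2 of the 5 genes were lower and 0 higher, where 17.1% of all genes were lower and 16.6% higher. This pair shares the TSA library with the choice of the genes, so its ratios are not independent of the choice. Over the senescent control the genes parted: Mt1 was at 1.41 (1.16 to 1.73) and called higher, as 15.8% of all genes were (15.9% lower), while Mt2A was at 0.976 (0.815 to 1.17). This pair shares the senescent control with the choice, so its ratios are not independent of the choice either. The ratio of Mt1 divided by that of Mt2A was 1.45 (1.104 to 1.91) in this pair, the only one of 6 in which its interval excluded 1. TSA + phenamil over the young control uses neither library of the choice: there Mt1 was at 1.19 (0.982 to 1.44) and Mt2A at 0.939 (0.786 to 1.12), and neither was called. In that pair 1 of the 5 genes was higher and 0 lower, against 16.2% and 15.7% of all genes. Of its 3894 called genes 50.7% were higher, and 35.0% with scaling by total counts.

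Summed over Mt1 and Mt2A, the level was 45.0 CPM (41.0 to 49.2) with TSA + phenamil, 70.9 CPM (65.7 to 76.3) with TSA, 39.0 CPM (35.4 to 42.9) in the senescent control and 42.9 CPM (39.1 to 46.9) in the young control. The sum was 1.82 (1.61 to 2.05) times the senescent control level with TSA and 0.634 (0.563 to 0.714) times the TSA level with TSA + phenamil. With TSA + phenamil over the senescent control it was 1.15 (1.008 to 1.32), and with scaling by total counts 1.13 with an interval that included no change. The senescent control was part of the choice of the genes. Senescent over young control gave 0.910 (0.797 to 1.04) and TSA + phenamil over young control 1.05 (0.920 to 1.19). Mt1 made up 49.2% of the pair's counts (Clopper-Pearson 95% interval 44.6 to 53.8%) with TSA + phenamil, 43.7% (39.97 to 47.4%) with TSA, 40% (35.3 to 44.8%) in the senescent control and 43.3% (38.8 to 47.9%) in the young control. This share does not depend on library scaling, and its 4 intervals overlapped. Overlap does not mean no difference: for TSA + phenamil and the senescent control, the ratio of Mt1 over that of Mt2A was 1.45 (1.104 to 1.91).

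**Figure D3:**
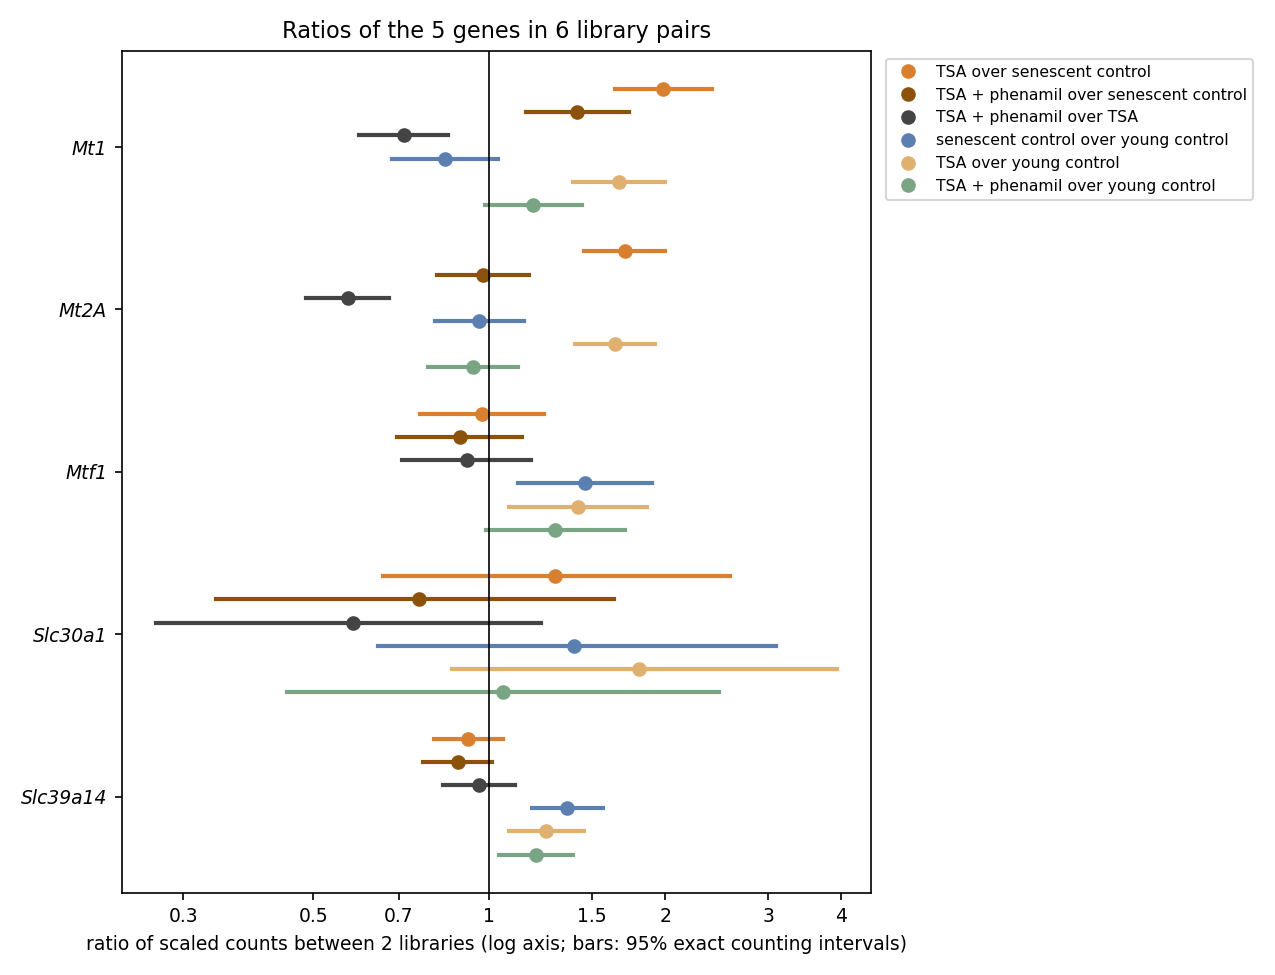
Ratios of scaled counts (log axis) of the 5 genes in 6 library pairs, with 95% exact counting intervals as bars and a line at no change. Mt1 and Mt2A lie right of the line in both pairs with TSA alone on top and left of it for TSA + phenamil over TSA; Mtf1 and Slc39a14 lie right of it where a senescent library is set over the young control.

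Mtf1, the zinc sensor, was not called in any pair among the senescent libraries. Its level was 11.8 CPM (9.82 to 14.1; 124 counts) with TSA + phenamil, 12.9 CPM (10.8 to 15.3; 128 counts) with TSA, 13.3 CPM (11.2 to 15.6; 146 counts) in the senescent control and 9.11 CPM (7.42 to 11.1; 101 counts) in the young control. The 3 senescent libraries overlapped and the young library was lowest. TSA over the senescent control gave 0.973 (0.762 to 1.24) and TSA + phenamil over TSA gave 0.915 (0.709 to 1.18). Over the young control the ratio was 1.46 (1.12 to 1.90) in the senescent control, 1.42 (1.08 to 1.86) with TSA and 1.297 (0.989 to 1.70) with TSA + phenamil, all against the same young library. The first 2 of these were called higher; neither was when cultures were taken to vary by a coefficient of 0.1.

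Slc39a14, the importer of zinc, iron and manganese, had the same order as Mtf1. It stood at 38.0 CPM (34.4 to 41.9; 399 counts) with TSA + phenamil, 39.6 CPM (35.8 to 43.7; 393 counts) with TSA, 43.0 CPM (39.3 to 47.1; 474 counts) in the senescent control and 31.6 CPM (28.4 to 35.1; 351 counts) in the young control. No pair of senescent libraries was called: TSA over the senescent control was at 0.920 (0.803 to 1.05), TSA + phenamil over it at 0.883 (0.771 to 1.011), and TSA + phenamil over TSA at 0.959 (0.832 to 1.11). With scaling by total counts, TSA + phenamil over the senescent control was called lower at 0.866. Over the young control, Slc39a14 was at 1.36 (1.18 to 1.57) in the senescent control, 1.25 (1.08 to 1.45) with TSA and 1.201 (1.04 to 1.39) with TSA + phenamil, of which the last was no longer called with scaling by total counts, at 1.16. None of these 3 was called when cultures were taken to vary by a coefficient of 0.1. In senescent over young control 2 of the 5 genes were called higher, Mtf1 and Slc39a14, and 0 lower, where 18.2% of all genes were higher and 16.7% lower. A young library below each of the other 3 was found for Slc39a14 alone among the 5 genes, and for 6.31% of all genes.

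Slc30a1, the zinc-induced exporter of the plasma membrane, was scarce. It had 13 counts (1.24 CPM) with TSA + phenamil, 21 (2.12 CPM) with TSA, 18 (1.63 CPM) in the senescent control and 13 (1.17 CPM) in the young control. The TSA library was nominally highest, as for the metallothioneins, and all intervals overlapped. TSA over the senescent control was at 1.295 (0.657 to 2.58) and TSA + phenamil over TSA at 0.585 (0.269 to 1.22). At this depth neither a ratio as large as that of Mt1 nor no difference lay outside the interval of the first pair.

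**Figure D4:**
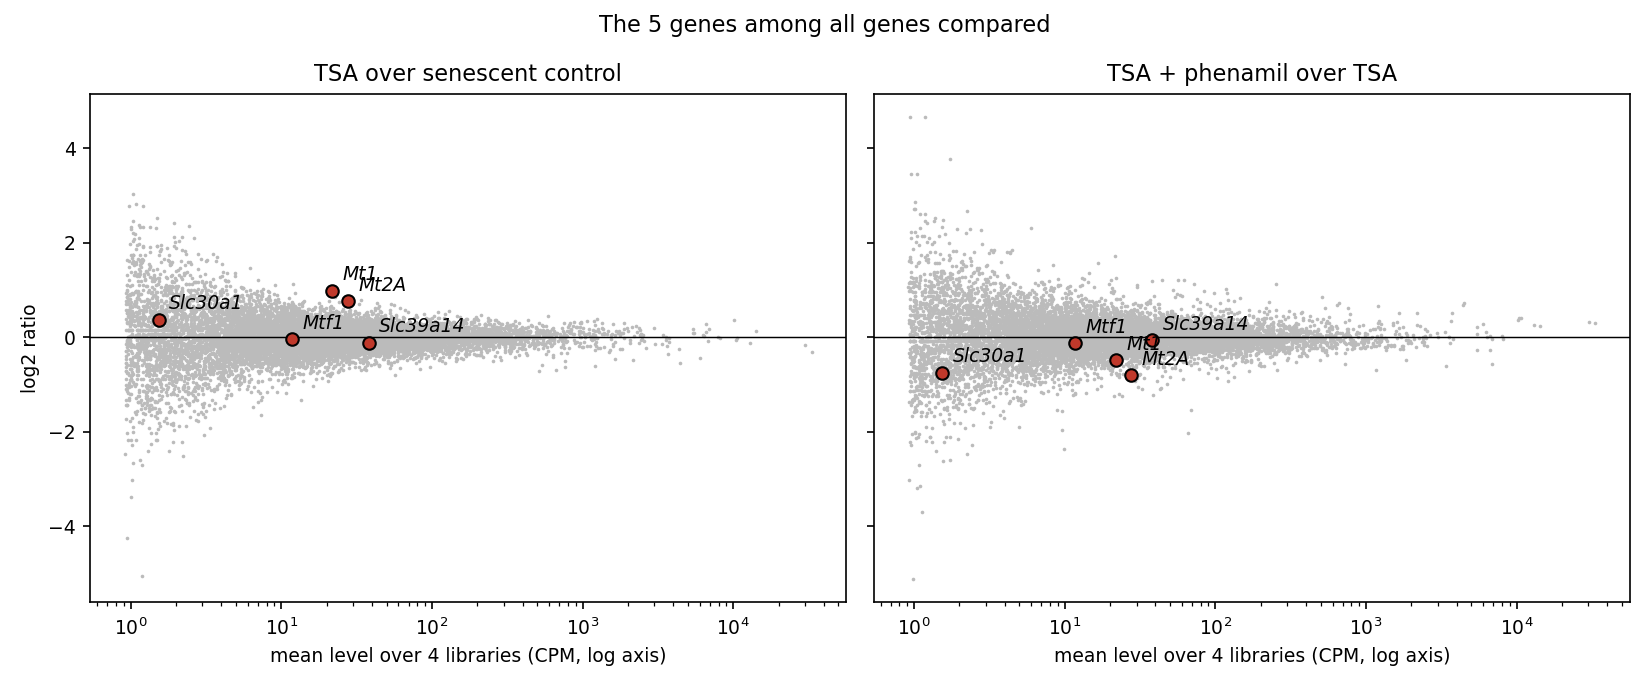
Log2 ratio against mean level (CPM, log axis) of the 12228 genes compared (grey) with the 5 genes in red, for TSA over senescent control and for TSA + phenamil over TSA. Mt1 and Mt2A lie at the upper edge of genes of their level in the first pair and toward the lower edge in the second, and Slc30a1 lies among genes with few counts.

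Transporters other than the members were taken as whole families. Calls of these and the later lists rest on counting error: of 117 such ratios followed, 86 were not called when cultures were taken to vary by a coefficient of 0.1. Of 10 exporters of the SLC30 family 6 had enough counts; Slc30a3, Slc30a8 and Slc30a10 had 0 counts throughout and Slc30a2 had 1. The most abundant was Slc30a7, which fills the Golgi and its vesicles with zinc, at 49.4 CPM with TSA + phenamil, 52.6 CPM with TSA, 50.4 CPM in the senescent control and 43.5 CPM in the young control. No exporter was called in any pair among the 3 senescent libraries: median log2 ratios were 0.07 for TSA over senescent control, -0.01 for TSA + phenamil over it and -0.12 for TSA + phenamil over TSA, beside -0.003, -0.001 and 0.001 over all genes. In the same order, 15.7%, 15.8% and 16.6% of all genes were called higher and 14.8%, 15.9% and 17.1% lower. Over the young control, 2 of 6 were higher and 1 lower in the senescent control, 3 and 1 with TSA, and 1 and 1 with TSA + phenamil. The shares of all genes called higher and lower were 18.2% and 16.7%, 20.9% and 20.4%, and 16.2% and 15.7% in that order, and 1 of 6 is close to them. Slc30a6, a partner of Slc30a5 in the secretory pathway, was at 1.39 (1.09 to 1.77) in the senescent control and 1.43 (1.12 to 1.83) with TSA. Slc30a4, an exporter into vesicles, went the other way, at 0.759 (0.647 to 0.890) in the senescent control, 0.797 (0.677 to 0.936) with TSA and 0.828 (0.707 to 0.969) with TSA + phenamil. Summed exporters stood at 166 CPM with TSA + phenamil, 177 CPM with TSA, 167 CPM in the senescent control and 164 CPM in the young control.

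Of 14 importers of the SLC39 family, Slc39a14 included, 10 had enough counts; Slc39a2 and Slc39a12 had 0 counts throughout. The most abundant was Slc39a7, which releases zinc from the endoplasmic reticulum, at 158 CPM with TSA + phenamil, 156 CPM with TSA, 153 CPM in the senescent control and 149 CPM in the young control. None of the 10 was called in TSA over the senescent control, where 15.7% of all genes were higher and 14.8% lower. With TSA + phenamil, Slc39a3, a plasma membrane importer, had 189 counts against 276 with TSA, 338 in the senescent control and 345 in the young control. Its ratio was 0.587 (0.488 to 0.703) over the senescent control, 0.647 (0.535 to 0.781) over TSA and 0.579 (0.482 to 0.693) over the young control, so the TSA + phenamil library was below all others. In the pair with the senescent control Slc39a3 was the only 1 of the 10 that was called, though with total counts Slc39a14 was called lower too. Of all genes, 15.8% were higher and 15.9% lower in that pair. Slc39a11 was also lower with TSA + phenamil than with TSA, at 0.797 (0.698 to 0.911), where 16.6% of all genes were higher and 17.1% lower.

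Importers were called in both directions in the senescent libraries over the young control. Slc39a10, a plasma membrane importer that MTF1 represses in mouse, was at 0.695 (0.538 to 0.895) in the senescent control, 0.642 (0.489 to 0.839) with TSA and 0.648 (0.496 to 0.841) with TSA + phenamil. Slc39a8, the closest relative of Slc39a14, had only 27 counts with TSA + phenamil, 23 with TSA, 23 in the senescent control and 11 in the young control. It was called higher with TSA + phenamil at 2.59 (1.25 to 5.79) and with TSA at 2.34 (1.095 to 5.31). The senescent control was not called, at 2.11 (0.986 to 4.79). In all, 1 importer was higher and 1 lower in the senescent control, 3 and 2 with TSA, and 2 and 3 with TSA + phenamil, beside 18.2% and 16.7%, 20.9% and 20.4%, and 16.2% and 15.7% of all genes. Median log2 ratios of the 10 were 0.03, 0.02 and -0.06 in that order. Over all genes they were 0.005, 0.004 and 0.002.

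**Figure D5:**
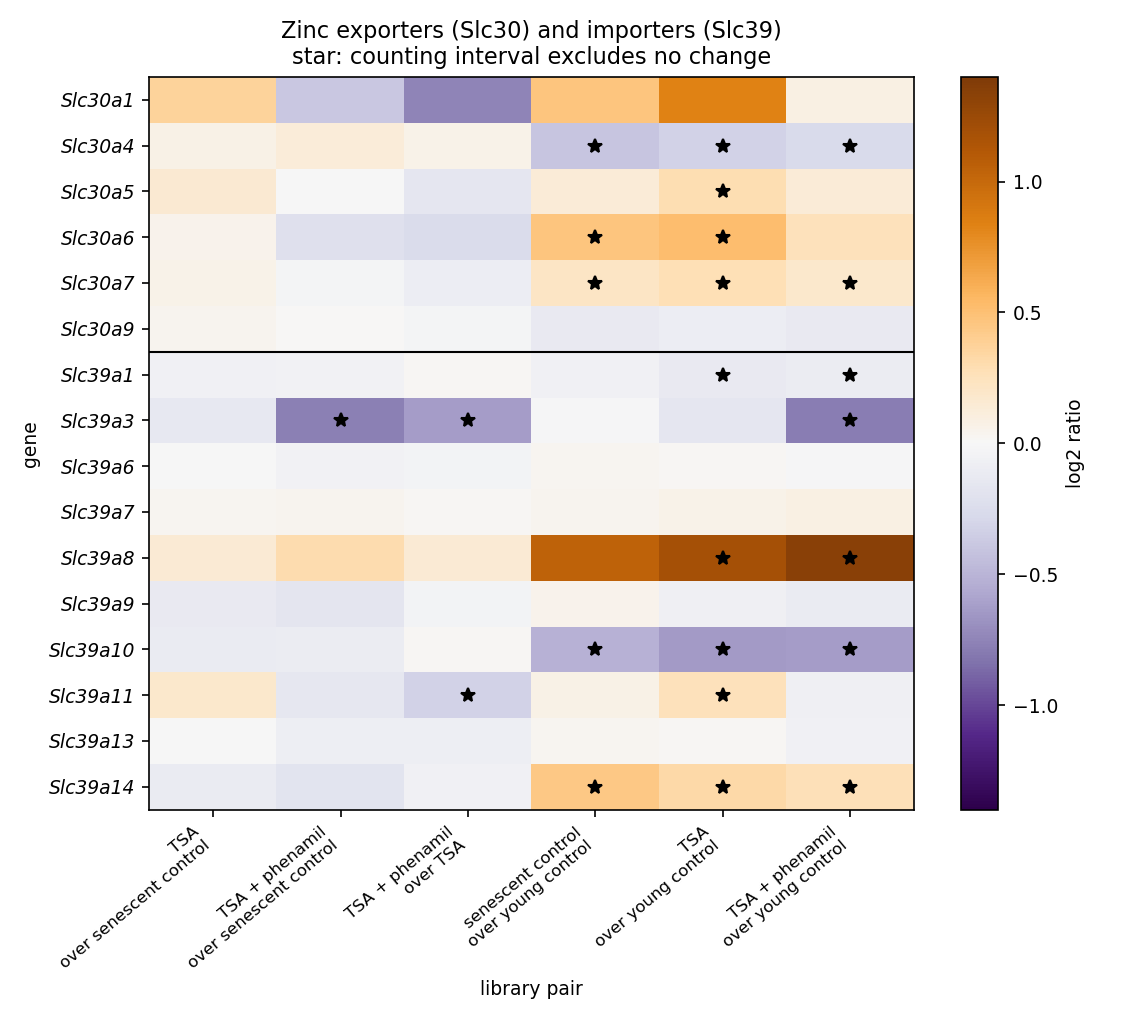
Log2 ratios (colour) of the 16 zinc transporters with enough counts in 6 library pairs, exporters above the line and importers below; a star marks a counting interval that excludes no change. The column for TSA over senescent control has no star, Slc39a3 has 3 in the columns with TSA + phenamil on top, and most other stars are in columns over the young control.

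Of 7 other metallothionein genes by symbol, the 3 that were counted were almost silent. Mt1m, Mt1-ps1, Mt1-ps3 and Mt1-ps4 were not among the counted genes, so their levels are not known. Mt3, known from brain, had 2 counts with TSA + phenamil, 0 with TSA, 0 in the senescent control and 2 in the young control, and Mt4, known from squamous epithelium, and Mt1f had 0 counts throughout. On chromosome 19, the 6 genes on either side of the pair include Mt3 and Mt4, and 5 of these 12 had enough counts. Of those, Nudt21, a 3′ end processing factor, was called higher with TSA over the senescent control, at 1.24 (1.06 to 1.45), and 0 were lower. Bbs2 was at 1.45 with 43 to 58 counts a library, Herpud1 at 1.03, Nup93 at 1.11 and Ogfod1 at 0.788, none of them called. In that pair 15.7% of all genes were higher and 14.8% lower. With TSA + phenamil over TSA, Nup93, a nuclear pore scaffold, was lower at 0.809 (0.702 to 0.932) and the other 4 were not called. There 16.6% of all genes were higher and 17.1% lower.

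Among genes described in mouse as other targets of MTF1, 2 of 6 were higher and 1 lower with TSA over the senescent control, beside 15.7% and 14.8% of all genes, with a median log2 ratio of -0.02. The 6 include Slc39a10, which MTF1 represses in mouse, so the counts and the median mix directions of control. Ndrg1 was at 1.33 (1.05 to 1.68) and Csrp1, a LIM-domain protein of smooth muscle, at 1.05 (1.02 to 1.08). Pgf, a placental growth factor of the VEGF family, was lower at 0.565 (0.449 to 0.708). It stood at 23.6 CPM with TSA + phenamil, 11.9 CPM with TSA, 21.1 CPM in the senescent control and 27.3 CPM in the young control. The TSA library was the lowest for Pgf and the highest for the metallothioneins. With TSA + phenamil over TSA, Pgf was at 1.99 (1.59 to 2.49), Csrp1 at 1.04 (1.013 to 1.07) and Selenoh, a nuclear selenoprotein, at 0.782 (0.698 to 0.875), so that 2 of 6 were higher and 1 lower, beside 16.6% and 17.1% of all genes. Gclc, which makes the precursor of glutathione, was not called in either pair, at 0.887 and 1.09.

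Genes were also grouped by the number of metal response element cores before their start. With TSA over the senescent control, 16.0% of 6736 genes with no match were called higher, 15.6% of 3120 with at least 1, 15.9% of 882 with at least 2, 16.7% of 234 with at least 3 and 16.7% of 48 with at least 4, a class that holds Mt1 and Mt2A. Called lower were 14.3%, 15.3%, 17.0%, 19.2% and 16.7% in that order, and the median log2 ratio of each class lay between -0.02 and 0.01. The classes from at least 1 to at least 4 are nested, and the window covers only 250 bases. Each of these classes holds Mt1 and Mt2A, which were chosen on this pair. In the smallest class they are among the 8 of 48 genes called higher, so its share is not independent of the choice.

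Genes induced by heavy metals and misfolded proteins were mixed. With TSA over the senescent control 2 of 10 were higher, Hmox1, which degrades haem, at 1.33 (1.26 to 1.41) and Srxn1, which repairs peroxiredoxins, at 1.23 (1.09 to 1.398). Another 5 were lower, led by the inducible chaperone gene Hspa1a at 0.614 (0.496 to 0.758) and its cochaperone Dnajb1 at 0.800 (0.689 to 0.927); the median log2 ratio was -0.10, and 15.7% of all genes were higher and 14.8% lower. Hspa1a and its near-identical copy Hspa1b, at 0.879 (0.785 to 0.984), can share reads, so their split is uncertain. With TSA + phenamil over TSA, Hmox1 was at 0.842 (0.797 to 0.890), Srxn1 at 0.785 (0.690 to 0.892) and Gclm, a subunit of the glutathione precursor enzyme, at 0.720 (0.581 to 0.891). Hspa1a was higher there at 1.28 (1.02 to 1.60). In that pair 3 of the 10 were higher and 4 lower, beside 16.6% and 17.1% of all genes.

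Among genes that respond to glucocorticoids, Sgk1 was highest in the TSA library, as were the metallothioneins. A TSA library above each of the other 3, by intervals that excluded no change, was found for 6.24% of all genes. This kinase gene, which acts on sodium transport, stood at 23.9 CPM with TSA + phenamil, 36.9 CPM with TSA, 25.7 CPM in the senescent control and 27.4 CPM in the young control. It was at 1.44 (1.23 to 1.68) with TSA over the senescent control and at 0.648 (0.550 to 0.763) with TSA + phenamil over TSA. Of the 8 genes with enough counts it was the only 1 called higher in the first pair, a share close to the 15.7% of all genes. In the second pair 2 were higher, Klf9 at 1.26 (1.16 to 1.36) and Dusp1 at 1.12 (1.04 to 1.21), and Sgk1 alone was lower, beside 16.6% and 17.1% of all genes. With TSA over the senescent control, Fkbp5, a co-chaperone of the glucocorticoid receptor, was at 1.013, Tsc22d3 at 1.014 and Per1 at 1.33, none of them called. Klf9 was lower in that pair at 0.807 (0.745 to 0.873). The median log2 ratio of the 8 was 0.02 there and -0.16 with TSA + phenamil over TSA.

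Genes of interleukin-6 and STAT3 signalling were set beside Slc39a14. Il6 itself had 41 counts with TSA + phenamil, 31 with TSA, 53 in the senescent control and 44 in the young control. Its receptor gene Il6r had 2 to 3 counts a library, too few to compare. In senescent over young control 3 of 9 were higher and 4 lower, beside 18.2% and 16.7% of all genes. Osmr, the receptor of oncostatin M, was the highest of them at 1.95 (1.504 to 2.54), and Cebpb was at 1.19 (1.05 to 1.34). Lower were the cytokine gene Lif at 0.748 (0.601 to 0.928), Stat3 at 0.883 (0.836 to 0.933), its feedback inhibitor Socs3 at 0.809 (0.678 to 0.963) and the shared receptor gene Il6st at 0.904, while Slc39a14 was at 1.36. With TSA over the senescent control 0 of 9 were higher and 5 lower, beside 15.7% and 14.8% of all genes, with Socs3 at 0.583 (0.466 to 0.728). Socs3 had 259 counts with TSA + phenamil, 124 with TSA, 236 in the senescent control and 294 in the young control, so the TSA library was the lowest.

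The 5 genes nearest to Mt1 in their profile over the 4 libraries, by Euclidean distance of centred log2 CPM among 10826 genes with at least 100 counts, were Shq1, Prxl2a, Ndufaf7, LOC102546699 and Pcdhgb7, at distances of 0.0622 to 0.144. Each had 19 to 155 counts a library, and with 4 points of 1 library each the likeness is a description. Mt2A was at a distance of 0.384, with 179 genes nearer to Mt1.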

How the data were processed

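Whole RNA of 4 libraries was sequenced with a 3′ tag kit (QuantSeq FWD, single reads of 100 bp), per the labels' protocols. STAR 2.7.10b, HTSeq 2.0.2 and mRatBN7.2 are named in the submitters' processing notes without role or order; annotation, strand use and treatment of duplicates were not stated there. The deposited table holds raw counts per gene, per the file headers. The deposited log2 values are the authors' normalized data; each equalled log2 of the count over 1 factor per library plus 1, within 0.000555, on the scale of CPM.

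Counts were scaled with edgeR 4.0.16 (TMM) in R 4.3.3, and no quasi-likelihood test was possible with 1 library a group. Genes with at least 40 counts were compared (12228 of 34034). Ratios used raw counts, and log2 ratios a prior count of 0.5. Intervals at 95% were computed with Python 3.11.15 (pandas 2.3.3, scipy 1.17.1, numpy 2.4.6), and figures used matplotlib 3.10.9. The computation was tested on simulated Poisson counts, which hold counting error only and leave out variation between cultures. DESeq2 1.42.0 size factors were 1 of the alternatives. Promoters matched 4 of the 5 genes by gene ID; the reference table (93.1% of IDs found) has another build, GRCr8. Its rows carry no descriptions, so other metallothioneins were taken by symbol, of which 3 of 7 were in the count table.

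A planned search for the antioxidant response element used letters that do not spell its core and is not reported. The members, gene lists and tests were chosen with earlier results of these data known. Named are the 5 members, up to 3 called members of each list and comparison by size, list members with 0 counts in all libraries, the most abundant exporter and importer, and the 5 genes nearest to Mt1; others were named after their values were seen, as were the counts of genes by element matches and by mean level. Sgk1, Socs3, Pgf and Slc39a3 fall under the rule.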

Additional observations from a re-analysis of the deposited data

How the results depend on the processing

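No paired analysis was possible because each group had 1 library. Over total counts, size factors of DESeq2, TMM with mitochondrial and ribosomal protein genes left out, other count filters and the deposited log2 values, the summed Mt1 and Mt2A ratios kept their direction and their call in 5 of 6 comparisons. The exception was TSA + phenamil over senescent control, at 1.13 with total counts and 1.14 with TMM without those genes, no longer called. That ratio, 1.15, was also not called with a coefficient of variation of 0.1 or 0.2 assumed between cultures. At 0.2 neither TSA + phenamil over TSA (0.634) nor TSA over young control (1.65) was called, while TSA over senescent control still was (1.03 to 3.20). Of 12 called ratios of the 5 genes, 5 were lost at 0.1 and 11 at 0.2, leaving Mt1 with TSA over senescent control. Of 117 called ratios of genes in the other lists, chosen by size, 86 were lost at 0.1 and 107 at 0.2. These losses follow from the wider interval, and the true variation between cultures is not known. Slc39a14 with TSA + phenamil over senescent control was called lower with total counts (0.866) and with TMM without those genes (0.871); the cause was not tested. At least 200 counts left out Slc30a1.

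In the order TSA over senescent control, TSA + phenamil over senescent control, TSA + phenamil over TSA, senescent over young control, TSA over young control and TSA + phenamil over young control, called genes numbered 3725, 3869, 4122, 4267, 5044 and 3894. With a coefficient of variation of 0.1 they numbered 1034, 1002, 1225, 1243, 1952 and 1036, with 0.2 they numbered 304, 301, 369, 368, 590 and 269, and with the whole interval beyond 1.5-fold 131, 133, 223, 165, 387 and 128. In TSA + phenamil over young control the share called higher was 50.7%, against 35.0% with total counts and 40.4% with TMM without those genes.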

Other observations

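Copper, which metallothioneins also bind, is handled by a separate set of genes, of which 9 of 10 in the table had enough counts. With TSA over the senescent control 3 were higher and 1 lower: Sod1, the copper and zinc superoxide dismutase, at 1.17 (1.12 to 1.23), the endosomal copper transporter gene Slc31a2 at 1.31 (1.06 to 1.61), the importer gene Slc31a1 at 1.15 (1.02 to 1.29), and the copper chaperone gene Ccs, which loads Sod1, at 0.864 (0.756 to 0.987). The median log2 ratio was 0.10, beside -0.003 over all genes, of which 15.7% were higher and 14.8% lower. Slc31a2 stood at 16.3 CPM with TSA + phenamil, 20.6 CPM with TSA, 15.7 CPM in the senescent control and 11.9 CPM in the young control. With TSA + phenamil over TSA 0 of 9 were higher and 4 lower, beside 16.6% and 17.1% of all genes, with Slc31a2 at 0.792 (0.643 to 0.975) and the chaperone gene Atox1 at 0.872 (0.795 to 0.958).

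Among 12 iron-handling genes, 5 were higher and 1 lower with TSA over the senescent control, beside 15.7% and 14.8% of all genes, with a median log2 ratio of 0.12. Steap3, an endosomal ferrireductase, had 53 counts with TSA + phenamil, 112 with TSA, 67 in the senescent control and 61 in the young control. Its ratio was 1.86 (1.36 to 2.55) with TSA over the senescent control and 0.447 (0.316 to 0.625) with TSA + phenamil over TSA. Like Mt1 and Mt2A it was highest in the TSA library, and 6.24% of all genes were higher there than in each other library by intervals that excluded no change. The mitochondrial iron importer gene Slc25a28 was at 1.55 (1.18 to 2.06) with TSA over the senescent control. Slc40a1, the iron exporter ferroportin, differed from these: it stood at 10.9 CPM with TSA + phenamil, 6.96 CPM with TSA, 5.27 CPM in the senescent control and 9.65 CPM in the young control. Its ratio was 2.06 (1.49 to 2.88) with TSA + phenamil over the senescent control and 0.546 (0.390 to 0.758) in senescent over young control, and both pairs share the senescent control.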
